A study of Mus musculus with 32 samples.

Results

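Rax and its eGFP reporter are 2 rows, chosen by name, of the 55492 rows of an expression table from mouse retinal organoids, and both were followed through all 32 libraries. Polyadenylated RNA was sequenced from embryonic stem cells (day 0) and from organoids grown from them (days 2, 4 and 6). The labels name 4 kinds of culture, giving 16 groups of 2 libraries, and every culture descends from a line whose name, Rx:GFP, couples Rx (Rax) with a green fluorescent protein. WT is that line. KO is labelled Mettl3 KO, a knockout of Mettl3, which encodes the catalytic subunit of the enzyme complex that writes N6-methyladenosine (m6A) on messenger RNA. The remaining cultures are the Mettl3 KO line overexpressing wild-type METTL3 joined to a domain that the labels call GRBD. The labels give this fusion as cytosolic in the absence of dexamethasone (Dex, a synthetic glucocorticoid) and as moved to the nucleus with Dex at 10 µM; the groups are called no Dex and Dex below. Medium with AGN at 0.1 µM was used for all organoids at days 2, 4 and 6, so it is shared by every group of those days. The day 0 Dex libraries are labelled Dex treated although the protocol lists Dex for 2, 4 and 6 days. How the reporter was built, the promoter that drives the fusion and the number of clones per line are not given in the labels used here, and neither WT nor KO cultures with Dex are among the samples, so an effect of Dex itself cannot be told apart from that of moving the fusion.

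Rax (retina and anterior neural fold homeobox) is a paired-type homeodomain transcription factor. It is switched on in the anterior neural plate, where it marks the eye field, the patch of cells from which both retinas arise, and it stays on in the optic vesicle, retinal progenitors and the ventral hypothalamus. Mice that lack it form no eyes. Otx2, Sox2 and Hesx1 act in the anterior neural plate around and before that step, and Pax6, Six3, Six6, Lhx2, Nr2e1 and Tbx3 are the eye-field transcription factors with which Rax is usually grouped. A GFP reporter tied to Rax is used to see and sort such cells in living organoids.

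Values are FPKM, fragments scaled by the length of the transcript and by how many fragments each library had mapped. Depth, estimated from the table, was 28.4 M to 53.1 M fragments per library (M, mega), with a median of 37.2 M. At that depth 3 fragments on the main 1672-base Rax transcript correspond to between 0.041 and 0.078 FPKM, a limit for counting error only, and every library had more Rax than that. Pearson r of duplicates across genes ran from 0.9922 to 0.9955, lowest for WT at day 0, whose first library was also the shallowest. Whether duplicates were separate cultures is not stated, so the p-values measure only the spread between these libraries, which may be technical. In bulk RNA, fewer cells that express a gene and less RNA per cell cannot be told apart.

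The targeted gene was read first as a check of the labels. Mettl3 (GRCm38 chromosome 14, 52294841 to 52305128, minus strand) stood at 36.80 and 33.15 FPKM in the WT libraries of day 0 and at 43.83 and 42.88 FPKM in those labelled KO. At day 6 the WT libraries held 36.33 and 35.11 FPKM and the KO libraries 37.86 and 37.32 FPKM. Mettl3 mRNA was thus not lower in the libraries labelled KO, and KO below means that label. Mettl3 mRNA was higher in the fusion line without Dex than in KO on each day, by between 0.36 (day 6) and 0.68 (day 0) on the log2(FPKM + 1) scale. Dex against no Dex was not called at any day, the differences lying between -0.07 (day 2, 0.01 after rescaling) and 0.10. A gene-level row counts endogenous and transgenic transcripts together and does not show a small deletion.

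Rax (ENSMUSG00000024518; GRCm38 chromosome 18, 65928277 to 65939787, minus strand, protein coding, with 7 annotated transcripts) was nearly silent before day 4 in all cultures. In WT it stood at 0.36 and 0.30 FPKM in stem cells and at 0.13 and 0.28 FPKM at day 2. It then reached 30.70 and 31.54 FPKM at day 4 and 121.50 and 114.84 FPKM at day 6. The WT libraries of days 4 and 6 lay far above those of days 0 and 2, and day 6 above day 4, with no overlap.

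KO cultures showed only a trace of this course. Rax was at 0.73 and 0.81 FPKM at day 0, 0.37 and 0.49 FPKM at day 2, 1.20 and 1.21 FPKM at day 4 and 0.28 and 0.32 FPKM at day 6. The day 4 libraries were the highest of the KO series, and those of day 6 the lowest.

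Without Dex, Rax in the fusion line passed through a short, low peak. Its libraries held 0.30 and 0.31 FPKM at day 0 and 0.32 and 0.30 FPKM at day 2, then 6.51 and 6.43 FPKM at day 4 and 0.79 and 1.03 FPKM at day 6. Day 4 stood apart from every other day, and the level at day 6 was 7.11-fold below that of day 4 by group means.

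With Dex, Rax came up higher than in WT at day 4 and did not climb further. The values were 0.23 and 0.20 FPKM at day 0, 0.31 and 0.22 FPKM at day 2, 74.19 and 74.76 FPKM at day 4 and 53.89 and 55.52 FPKM at day 6. Both day 6 libraries were below both of day 4, whereas in WT they were above.

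**Figure D1:**
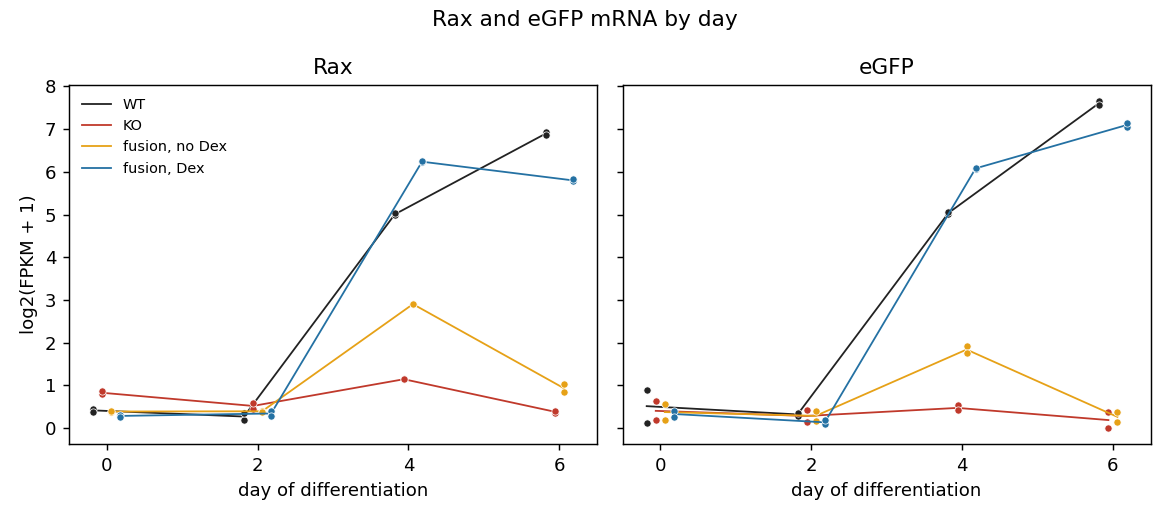
Level of Rax (left) and eGFP (right) as log2(FPKM + 1) against day for WT, KO and the fusion line without and with Dex; each point is 1 library, offset sideways for clarity, and lines join group means. Between days 4 and 6 the Rax lines of WT and Dex cross, WT going from 31.12 to 118.2 FPKM and Dex from 74.47 to 54.7 FPKM in group means, while eGFP climbs in both.

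The eGFP row followed the same outline. It is the sequence of enhanced green fluorescent protein added to the mouse genes by the authors. WT libraries held 0.09 and 0.86 FPKM at day 0, 0.22 and 0.27 FPKM at day 2, 31.40 and 32.26 FPKM at day 4 and 200.34 and 189.57 FPKM at day 6. The 2 stem cell libraries of WT held the lowest and the highest of the day 0 values.

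In KO no eGFP signal above the stem cell range appeared. Its libraries held 0.13 and 0.54 FPKM at day 0, 0.34 and 0.10 FPKM at day 2, 0.44 and 0.33 FPKM at day 4, and 0.00 (listed at 0) and 0.29 FPKM at day 6. No day stood apart from the others in all its libraries.

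Without Dex the eGFP reporter peaked at day 4 as Rax did. The values were 0.48 and 0.13 FPKM at day 0, 0.12 and 0.32 FPKM at day 2, 2.77 and 2.38 FPKM at day 4 and 0.10 and 0.30 FPKM at day 6. Only the libraries of day 4 were above 1 FPKM.

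With Dex the eGFP reporter, unlike Rax, kept climbing after day 4. It went from 0.32 and 0.19 FPKM at day 0 and 0.06 and 0.13 FPKM at day 2 to 66.48 and 66.87 FPKM at day 4 and 132.12 and 139.46 FPKM at day 6. Both libraries of day 6 lay above both of day 4.

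The table holds further reporter rows. Cre, mCherry and tdTomato were listed at 0 in all 32 libraries. The eYFP row, a near-identical variant of the same protein whose reads can be shared with eGFP, was above 0 in 4 libraries, at 0.09 FPKM (WT day 0), 0.13 FPKM (KO day 0), 0.10 FPKM (KO day 2) and 0.10 FPKM (no Dex day 6). In each of those libraries the eGFP row held exactly the same value, so eGFP values of this size are uncertain.

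Ordered by group mean, Rax was highest in WT at day 6 (118.2 FPKM), followed by Dex at day 4 (74.47), Dex at day 6 (54.7), WT at day 4 (31.12), no Dex at day 4 (6.47) and KO at day 4 (1.205). None of these neighbours overlapped. Next came no Dex at day 6 (0.91) and KO at day 0 (0.77), whose libraries overlapped, then KO at day 2 (0.43), and from WT at day 0 (0.33) down to WT at day 2 (0.205) each group overlapped the next. For eGFP the order was WT at day 6 (195 FPKM), Dex at day 6 (135.8), Dex at day 4 (66.68), WT at day 4 (31.83) and no Dex at day 4 (2.575), without overlap. All other groups had means between 0.095 and 0.475 FPKM and overlapped their neighbours. The Dex groups of days 4 and 6 therefore stood in opposite order for the gene and for its reporter.

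The reporter and the gene were compared directly through the ratio of eGFP to Rax in the 10 libraries where both reached 1 FPKM. At day 4 the ratio was 1.023 and 1.023 in WT, 0.8961 and 0.8945 with Dex and 0.4255 and 0.3701 without Dex. At day 6 it was 1.649 and 1.651 in WT and 2.452 and 2.512 with Dex. The ratio was higher at day 6 than at day 4 in both cultures that had a value, by group means from 1.023 to 1.65 in WT and from 0.8953 to 2.482 with Dex. Among the day 4 groups with a value it was lowest without Dex, which also had the least Rax of them. It was highest in WT, although Rax was higher with Dex. Both rows are scaled by length, but the length used for eGFP is not given, so the ratio carries meaning between libraries and not as a ratio of molecules. These ratios were not tested.

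**Figure D2:**
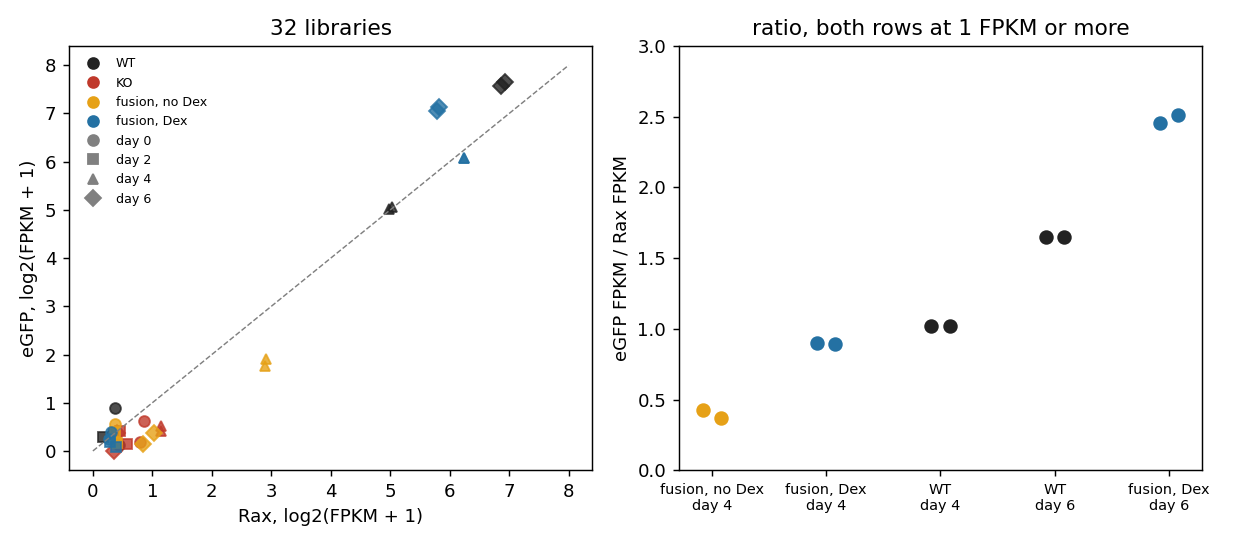
Left, eGFP against Rax as log2(FPKM + 1) in the 32 libraries, coloured by culture, with the marker shape giving the day and the dashed line marking equal values. Right, the ratio of eGFP FPKM to Rax FPKM in each of the 10 libraries with both rows at 1 FPKM or more, which runs from 0.3701 (no Dex, day 4) to 2.512 (Dex, day 6).

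Differences were tested with limma on log2(FPKM + 1) over the 16276 genes that had at least 2 libraries at 1 FPKM or more, and calls were made at an adjusted p under 0.05 (Benjamini-Hochberg). Both Rax and eGFP passed that filter. A large share of all genes was called in each comparison, and that share is given beside the first result of each. Differences on this scale understate changes of low values.

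The first comparison asked how the time course differed between KO and WT. Rax was lower in KO at day 4, with a log2 difference of -3.87 ± 0.06 (SE; limma adjusted p = 3.43e-19), where the WT mean was 25.8-fold above that of KO. At day 6 the log2 difference was -6.52 ± 0.06 (adjusted p = 2.92e-23), a 394-fold gap between group means. These were the 6th and the 3rd lowest differences of all tested genes, of which 60.5% were called at day 4 and 65.1% at day 6. At the earlier days the direction was the opposite. Rax was slightly higher in KO at day 0, by 0.41 ± 0.06 (adjusted p = 2.35e-05, a 2.33-fold ratio of group means), and at day 2, by 0.25 ± 0.06 (adjusted p = 0.00229), with 48.2% and 58.9% of genes called. All of these early values were below 1 FPKM, and without the first WT library of day 2 the day 2 difference was 0.16 and not called (adjusted p = 0.0678).

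For eGFP the log2 difference of KO against WT was -4.57 ± 0.20 at day 4 (limma adjusted p = 2.25e-13) and -7.43 ± 0.20 at day 6 (adjusted p = 7.35e-17). It was the lowest of all tested genes at day 6 and the 2nd lowest at day 4. The reporter did not show the small early excess seen for Rax in KO. Its differences of -0.11 at day 0 and -0.04 at day 2 were not called, each with an SE of 0.20, which is too wide to see a difference of the size found for Rax.

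The second comparison asked what the fusion without Dex added to KO. At day 4 Rax was higher without Dex by 1.76 ± 0.06 (limma adjusted p = 7.95e-13), 5.37-fold by group means and the 22nd highest difference, against 26.7% of genes called. By day 6 the gap had narrowed to 0.55 ± 0.06 (adjusted p = 5.47e-07), 3.03-fold, with 49% of genes called. At day 0 Rax was lower than in KO (log2 difference -0.44 ± 0.06, adjusted p = 9.81e-06; 49.1% of genes called), and at day 2 the difference of -0.13 was not called (adjusted p = 0.136; 37% of genes called). The reporter was higher at day 4 only, by 1.37 ± 0.20 (adjusted p = 3.84e-05). Its difference at day 6 was 0.07 ± 0.20 and was not called (adjusted p = 0.802).

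The third comparison, Dex against no Dex, set the nuclear against the cytosolic fusion. Rax was higher with Dex by 3.34 ± 0.06 at day 4 (limma adjusted p = 1.49e-17) and by 4.87 ± 0.06 at day 6 (adjusted p = 3.03e-20). By group means these were 11.5-fold and 60.1-fold, the 4th and the 3rd highest differences among the tested genes, of which 40.2% and 42.7% were called. At day 0 the difference was -0.10 ± 0.06 (adjusted p = 0.21) and at day 2 -0.05 ± 0.06, neither called, while 43.4% and 44.3% of genes were. For eGFP the difference was 4.24 ± 0.20 at day 4 (adjusted p = 3.89e-12) and 6.84 ± 0.20 at day 6 (adjusted p = 2.72e-15), the 2nd highest and the highest of all genes. The reporter was not called at days 0 and 2.

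The last same-day comparison asked how near Dex cultures came to WT. At day 4 Rax was above WT, by 1.23 ± 0.06 (limma adjusted p = 1.38e-11), 2.39-fold by group means, and at day 6 below it, with a log2 difference of -1.10 ± 0.06 (adjusted p = 1.73e-11), a WT mean 2.16-fold higher. Of all tested genes 44.7% were called at day 4 and 61.4% at day 6. At days 0 and 2 the differences of -0.13 ± 0.06 and 0.07 ± 0.06 were not called, against 49.8% and 29.4% of genes. eGFP went the same ways by less. It was 1.04 ± 0.20 higher at day 4 (adjusted p = 2.18e-04), 2.10-fold, and at day 6 the difference was -0.52 ± 0.20 (adjusted p = 0.0275), a WT mean 1.44-fold higher. Leaving out any of the 4 libraries ended the day 6 call, though the difference stayed between -0.56 and -0.48. With a pseudocount of 0.1 neither eGFP difference was called (limma adjusted p = 0.231 at day 4 and 0.541 at day 6). In fits of the compared groups alone both were called (limma adjusted p = 4.98e-04 at day 4 and 6.75e-04 at day 6).

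**Figure D3:**
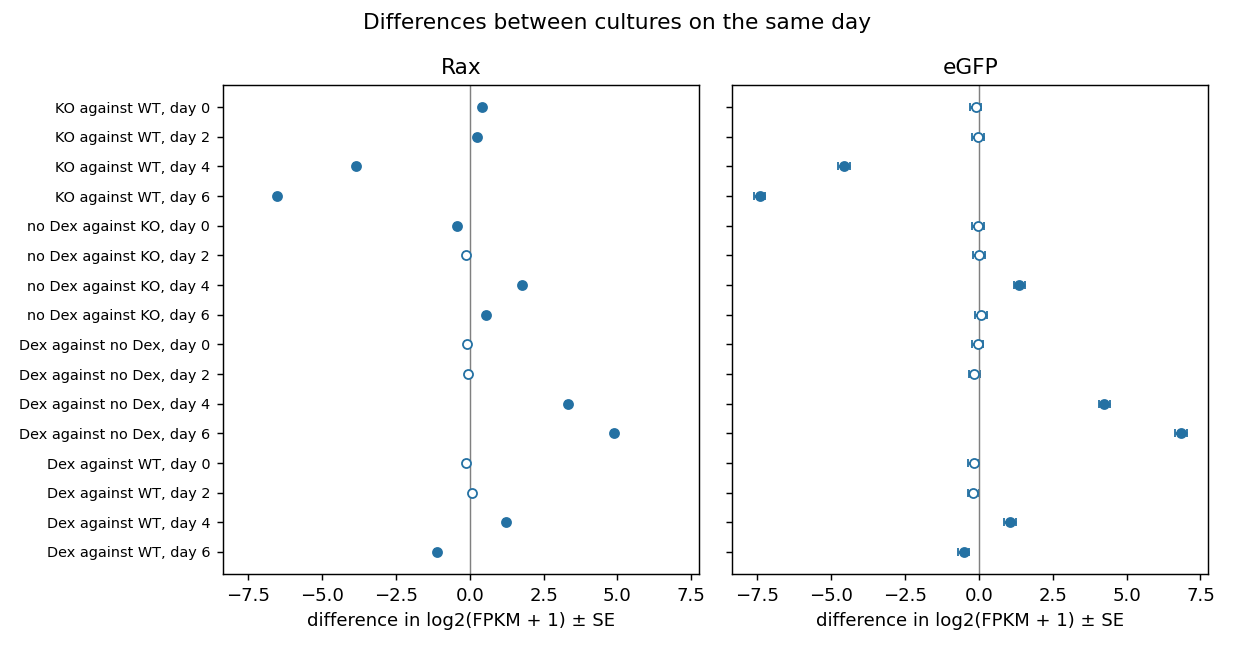
Differences in log2(FPKM + 1) between cultures on the same day for Rax (left) and eGFP (right), from the limma fit; bars are standard errors, filled points have an adjusted p under 0.05 and open points do not. The large differences all fall at days 4 and 6, and Dex against WT changes sign between those days for both rows, from 1.23 to -1.10 for Rax and from 1.04 to -0.52 for eGFP.

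Changes between consecutive days were tested within each culture. In WT Rax rose by 4.74 ± 0.06 from day 2 to day 4 (limma adjusted p = 4.26e-21, 59.9% of genes called), the 6th highest change of all genes. It rose by another 1.89 ± 0.06 to day 6 (limma adjusted p = 2.65e-15, 66.7% called), 3.80-fold by group means. The change from day 0 to day 2 was -0.15 ± 0.06 and was not called (adjusted p = 0.0539; 63.4% called), though it was called without the second WT library of day 2 (-0.23, adjusted p = 0.00799), with a pseudocount of 0.1 and without the variance trend. With Dex, Rax rose by 5.90 ± 0.06 from day 2 to day 4 (adjusted p = 8.22e-23; 66.7% called), the 3rd highest change, and fell by 0.44 ± 0.06 to day 6 (adjusted p = 5.21e-06; 65.1% called), 1.36-fold by group means. From day 0 to day 2 it did not pass the test (0.06 ± 0.06; 60.6% called).

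Without Dex, Rax rose by 2.51 ± 0.06 from day 2 to day 4 (limma adjusted p = 4.93e-17; 60.8% of genes called) and fell by 1.97 ± 0.06 to day 6 (adjusted p = 1.07e-15; 67.9% called). The step from day 0 to day 2 was 0.01 and not called (67.9% called). In KO the changes were smaller but each was called. Rax fell by 0.31 ± 0.06 from day 0 to day 2 (adjusted p = 2.67e-04; 65.6% called), rose by 0.63 ± 0.06 to day 4 (adjusted p = 5.29e-08; 64.2% called) and fell by 0.76 ± 0.06 to day 6 (adjusted p = 2.48e-09; 65.3% called). Rax thus rose from day 2 to day 4 in all 4 kinds of culture, to group means of 1.205, 6.47, 31.12 and 74.47 FPKM in KO, no Dex, WT and Dex.

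The reporter showed the same steps in WT and without Dex. It rose by 4.72 ± 0.20 from day 2 to day 4 and by 2.58 ± 0.20 to day 6 in WT (limma adjusted p = 1.04e-13 and 6.42e-10). Without Dex it rose by 1.55 ± 0.20 and fell by 1.58 ± 0.20 (adjusted p = 1.06e-06 and 6.37e-07). With Dex it rose by 5.95 ± 0.20 from day 2 to day 4 (adjusted p = 2.08e-15) and by another 1.01 ± 0.20 to day 6 (adjusted p = 1.39e-04), 2.04-fold by group means, the interval in which Rax fell. That last step was not called with a pseudocount of 0.1 (1.02, adjusted p = 0.203). None of its steps was called in KO.

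Whether the step from day 4 to day 6 differed between cultures was tested as an interaction. For Rax the change was lower with Dex than in WT (difference of changes -2.33 ± 0.09, limma adjusted p = 1.43e-13; 52% of genes called) and 1.53 ± 0.09 higher with Dex than without (adjusted p = 1.48e-10; 41.2% of genes called). For eGFP the differences of changes were -1.56 ± 0.28 against WT (adjusted p = 9.68e-05) and 2.59 ± 0.28 against no Dex (adjusted p = 4.00e-07). The eGFP difference against WT was not called with a pseudocount of 0.1 (-1.59, adjusted p = 0.192).

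Genes of the pathway were read from lists whose members were chosen with earlier results of these data known, so their counts are descriptions. Of the 6 other eye-field factors, 1 was higher in KO than in WT at day 4, 4 were lower and 1 was not called. Their median log2 difference was -0.77, against 0.07 over all genes. Six6, 1 of those lower, held only 0.33 and 0.21 FPKM in WT and 0.01 and 0.03 FPKM in KO. At day 6, 5 of the 6 were lower and 1 was not called (median -4.22, all genes -0.03). The shares of all genes called in KO against WT were 60.5% at day 4 and 65.1% at day 6. With Dex against no Dex, 4 factors were higher and 2 not called at day 4 (median 1.04, all genes -0.01), and 5 higher and 1 not called at day 6 (median 1.74, all genes 0.01). Here 40.2% and 42.7% of all genes were called. Against WT, Dex cultures had 4 higher, 1 lower and 1 not called at day 4, and 1 higher, 4 lower and 1 not called at day 6, where 44.7% and 61.4% of all genes were called. All 6 members differed in their day 4 to day 6 change between Dex and WT, 5 of them with a lower change with Dex (median -2.25, all genes -0.04). That difference of changes was called for 52% of all genes.

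Six3, a homeobox factor that keeps the forebrain free of Wnt signalling, had the course most like that of Rax on this list. Its WT libraries held 73.79 and 74.30 FPKM at day 4 and 138.20 and 125.53 FPKM at day 6, and its KO libraries 7.08 and 7.18 FPKM and then 0.69 and 0.58 FPKM. Without Dex it held 34.55 and 33.07 FPKM at day 4 and 10.67 and 12.19 FPKM at day 6, and with Dex 128.39 and 126.31 FPKM and then 48.36 and 50.91 FPKM. As for Rax, Dex libraries were the highest at day 4 and WT libraries at day 6, but Six3 was more retained without Dex, where its day 6 log2 difference from KO was 2.92 ± 0.07 (limma adjusted p = 1.55e-16).

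Lhx2, a LIM homeobox factor needed for the optic vesicle, kept climbing with Dex where Rax did not. It went from 65.98 and 68.79 FPKM at day 4 to 153.91 and 155.23 FPKM at day 6 with Dex, and from 14.43 and 12.97 FPKM to 239.75 and 228.24 FPKM in WT. In KO it stayed at 4.59 and 5.35 FPKM at day 6. Six6, which acts in retinal progenitors, came on only between days 4 and 6. Its day 6 libraries held 70.33 and 69.00 FPKM in WT, 6.66 and 6.13 FPKM with Dex, and at most 0.02 FPKM in KO and without Dex. Pax6, a paired-box factor shared by retina, forebrain and spinal cord, did not separate the cultures in that way, with 111.15 and 109.07 FPKM in WT and 111.25 and 112.15 FPKM in KO at day 6 (log2 difference 0.02 ± 0.15, limma adjusted p = 0.926).

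Of the 6 genes that act in the anterior neural plate before or beside Rax, 2 were higher, 3 lower and 1 not called in KO against WT at day 4 (median -0.35, all genes 0.07; 60.5% of all genes called), and 3 higher and 3 lower at day 6 (median -0.58, all genes -0.03; 65.1% called). With Dex against no Dex, 5 were higher and 1 lower at day 4 (median 0.23, all genes -0.01), where 40.2% of all genes were called. Hesx1, a repressor of the anterior neural plate, peaked at day 4, with 153.09 and 157.72 FPKM in WT, 35.13 and 35.58 FPKM in KO, 76.11 and 72.86 FPKM without Dex and 159.88 and 164.53 FPKM with Dex. Dex against WT was not called for Hesx1 at day 4 (0.06 ± 0.12, limma adjusted p = 0.737), where Rax was above WT. At day 6 the Dex libraries held 0.47 and 0.26 FPKM of Hesx1, against 13.72 and 14.09 FPKM in WT (log2 difference -3.45 ± 0.12, adjusted p = 1.84e-14). Hesx1 also differed at the earlier days, by 1.12 ± 0.12 at day 0 (adjusted p = 4.34e-07) and by -0.42 ± 0.12 at day 2 (adjusted p = 0.0159). Otx2, a factor of forebrain and midbrain, was not called between KO and WT at day 4 (0.04 ± 0.03), where it stood at 200.34 and 202.89 FPKM in KO. At day 6 Otx2 was higher in KO, at 202.64 and 203.53 FPKM against 105.30 and 104.31 FPKM in WT.

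Of 10 genes of the optic vesicle, in which Rax stays active, 9 were lower and 1 higher in KO at day 6 (median -1.88, all genes -0.03), the exception being Mab21l2. Dex against no Dex gave 8 higher, 1 lower and 1 not called at day 6 (median 0.72, all genes 0.01), and Dex against WT 3 higher and 7 lower (median -1.11, all genes -0.02). The shares of all genes called at day 6 were 65.1% for KO against WT, 42.7% for Dex against no Dex and 61.4% for Dex against WT. At day 4, when Rax already differed 25.8-fold between WT and KO, none of the 10 was lower in KO, 6 were higher and 4 were not called (median 0.17, all genes 0.07). With 60.5% of all genes called in that comparison, the number of calls was near the background.

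The hypothalamus is the other known domain of Rax. Of 7 genes marking it, 5 (Nkx2-1, Otp, Sim1, Fgf10 and Shh) stayed under 1 FPKM in every library and were not tested. Tbx2, a T-box factor of the ventral hypothalamus that is also expressed in the dorsal eye, stood at 22.24 and 23.23 FPKM with Dex at day 6 and at most 0.90 FPKM in the other day 6 libraries (Dex against no Dex 4.04 ± 0.09, limma adjusted p = 2.33e-17). Nkx2-4, the other member tested, was below 1 FPKM in all libraries of days 4 and 6.

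Genes with a symbol whose course was most like that of Rax were found by Pearson r over the 16 group means of log2(FPKM + 1). These are descriptions, since the groups share a time course. Highest was eGFP (r = 0.985), followed by Gm28528 (0.978), Raxos1 (0.976), and further down Six3os1 (0.938), Six3 (0.933), Cdh20 (0.93) and Ccdc150 (0.926). For eGFP the list began with Rax (0.985), Raxos1 (0.968) and Gm28528 (0.957), and ended with Six3os1 (0.925), Ccdc150 (0.923), Npm2 (0.909) and Cdh20 (0.906). By rank the lists changed almost entirely: 1 of the 8 genes like Rax and none of the 8 like eGFP stayed among the first 8 by Spearman rho, and rho between Rax and eGFP was 0.776 over group means and 0.723 over the 32 libraries.

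Several of these names share a locus. Gm28528 (GRCm38 chromosome 17, 85619326 to 85621001, minus strand) and Six3os1 (85600651 to 85618398, minus strand) lie on the strand opposite to Six3 (85613608 to 85629302, plus strand) and overlap it. Without a stated use of strand in the counting, reads of such pairs cannot be told apart, and Gm28528 reached only 1.08 FPKM. Cdh20 (chromosome 1), a classical cadherin, followed the crossing of WT and Dex, with 1.96 and 1.79 FPKM in WT and 3.60 and 3.70 FPKM with Dex at day 4 and 7.71 and 7.94 FPKM against 1.91 and 1.61 FPKM at day 6.

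**Figure D4:**
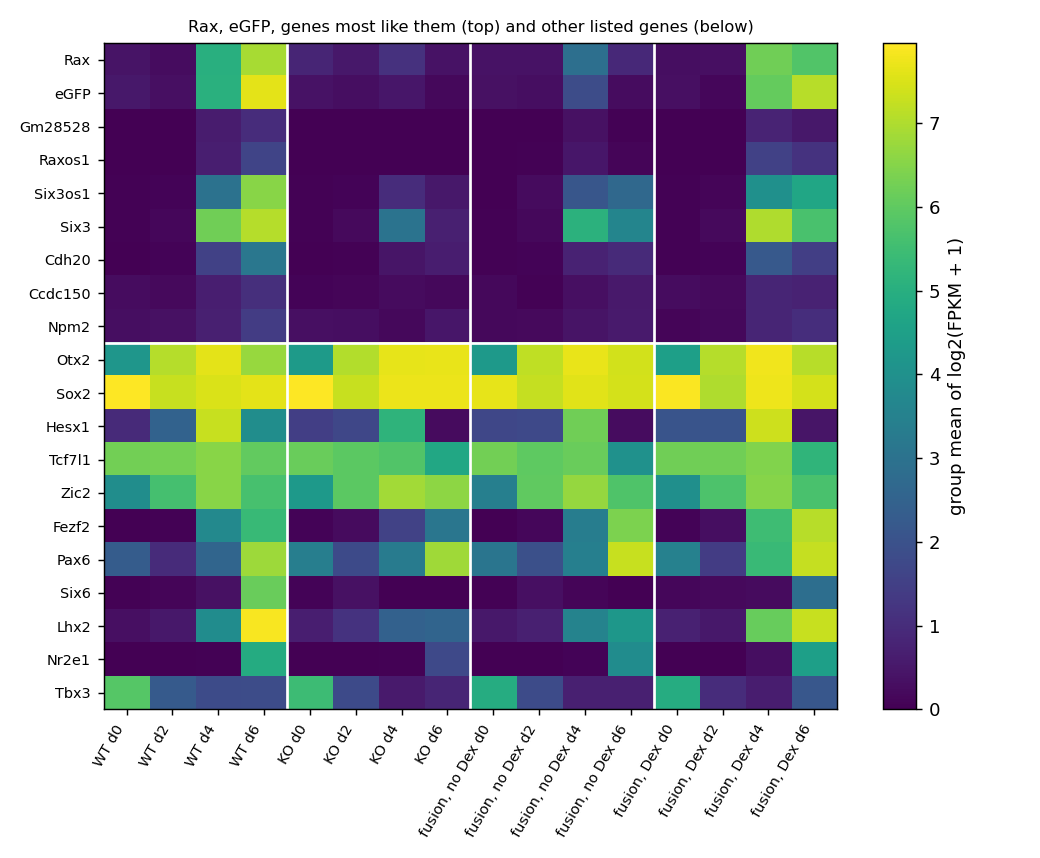
Group means of log2(FPKM + 1) in the 16 groups, ordered by culture and day, for Rax, eGFP and genes most like them (above the white line) and for the other eye-field and anterior neural genes (below it). Rax, eGFP and Six3 are bright in WT and Dex at days 4 and 6 and dark in KO at day 6, whereas Pax6 is bright at day 6 in all cultures.

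The Rax locus was then examined for other transcripts. Raxos1 (65937538 to 65940447, plus strand), an antisense transcript, overlaps exons of Rax at its start and held between 1.66% and 6.26% of the Rax FPKM in the groups where Rax was above 1 FPKM. Its libraries held 0.75 and 0.47 FPKM in WT at day 4 and 2.61 and 1.67 FPKM at day 6, 2.74 and 1.25 FPKM and then 0.84 and 1.73 FPKM with Dex, and at most 0.04 FPKM in KO on those days. Its duplicates were further apart than those of Rax, and with Dex the libraries of days 4 and 6 overlapped. It was lower in KO at day 6 (-1.63 ± 0.19, limma adjusted p = 2.14e-07), and higher in Dex than in WT at day 4 (0.85 ± 0.19, adjusted p = 8.83e-04) but lower at day 6 (-0.47 ± 0.19, adjusted p = 0.0348). Reads of Rax and of Raxos1 in their shared part cannot be told apart without strand.

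Within 500 kb of Rax the annotation holds 33 other genes, of which 7 were tested, Raxos1 among them, and 14 were listed at 0 in every library. Lman1 (65980738 to 66022580, 41 kb away), which encodes a cargo receptor of the secretory pathway and is widely expressed, moved in part like Rax on top of a high level. It held 35.38 and 36.19 FPKM in WT at day 4 and 58.54 and 59.26 FPKM at day 6, and 52.56 and 52.53 FPKM and then 37.74 and 37.87 FPKM with Dex. In KO it stayed at 33.30 and 33.99 FPKM and at 31.85 and 31.81 FPKM. The difference of KO from WT at day 6 was -0.87 ± 0.03 (limma adjusted p = 6.90e-16), and the day 4 to day 6 change was lower with Dex than in WT (-1.17 ± 0.04, adjusted p = 1.02e-14). Over the 16 group means its r with Rax was 0.749, rank 291 of the tested genes. The protein-coding neighbours Malt1, Zfp532, Sec11c and Grp had r between -0.59 and 0.136, though the day 4 to day 6 change was lower with Dex than in WT also for Malt1 (-0.63 ± 0.20, adjusted p = 0.0112) and Zfp532 (-0.43 ± 0.07, adjusted p = 3.75e-05). For Sec11c it was higher (0.51 ± 0.10, adjusted p = 3.67e-04), and for Grp it was not called. Cplx4, the nearest protein-coding gene at 15.9 kb, never exceeded 0.51 FPKM and was not tested.

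**Figure D5:**
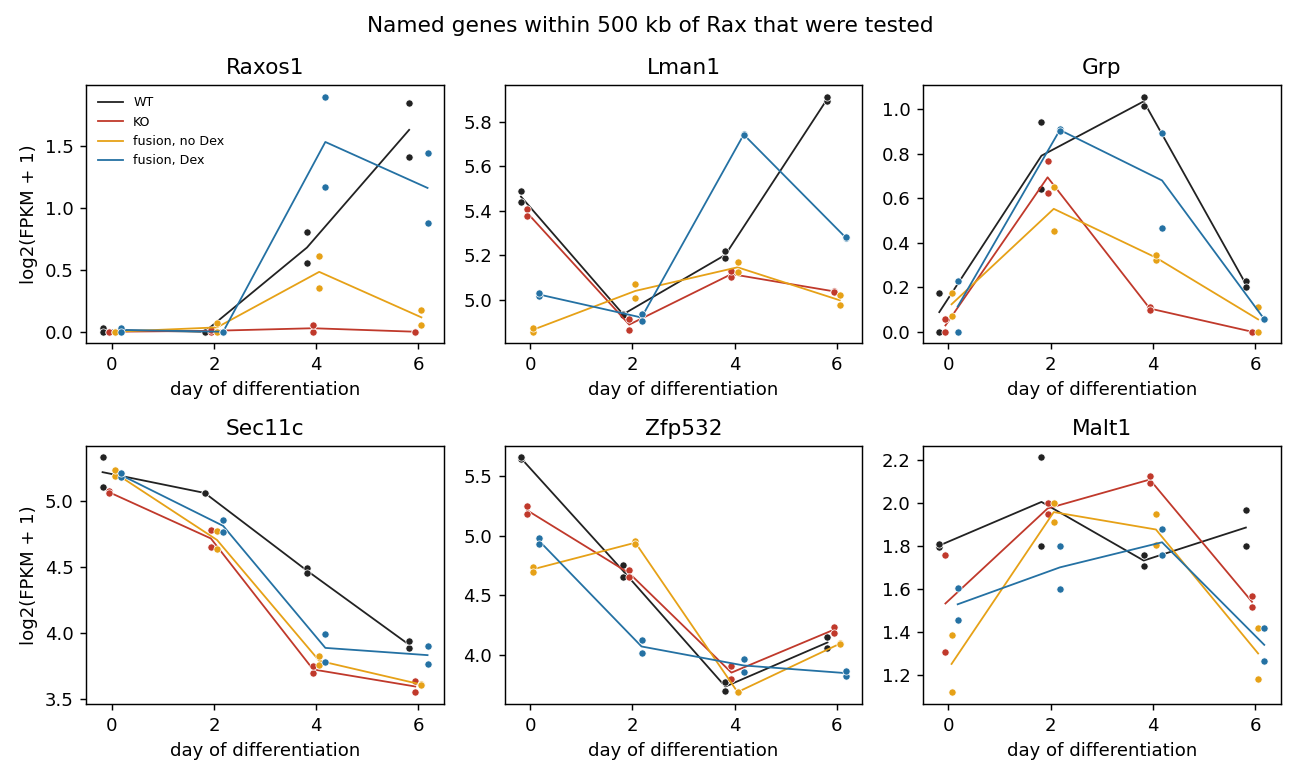
Levels as log2(FPKM + 1) against day for 6 tested genes within 500 kb of Rax, with 1 point per library, lines through group means and a separate vertical scale in each panel. The WT and Dex lines cross between days 4 and 6 for Raxos1, Lman1, Zfp532 and Malt1, and not for Grp and Sec11c; in WT, Lman1 goes from 35.38 and 36.19 FPKM to 58.54 and 59.26 FPKM.

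Markers of other cell types moved with the same groups, and their part in the Rax and eGFP differences was not tested. All 4 extraembryonic endoderm markers (Gata4, Gata6, Dab2 and Sox7) were lower in KO than in WT and lower with Dex than in WT on every day. Their summed level was between 29.01 and 44.34 FPKM in WT from day 2 to day 6 and at most 11.34 FPKM in the other cultures. The 4 neural crest markers summed to 2.70 and 2.59 FPKM in WT at day 6, to 60.75 and 61.64 FPKM in KO, to 50.17 and 51.53 FPKM without Dex and to 18.40 and 18.54 FPKM with Dex. That order is the reverse of the order of Rax at day 6, and all 4 were higher in KO. The 5 midbrain and hindbrain markers did not move together in KO against WT at day 6. There 2 were higher (Irx1 and En1), 2 lower (Pax2 and Gbx2) and 1 not called (En2), with a median of -0.18 (all genes -0.03). At day 4, 4 were higher and 1 not called in KO against WT (median 0.62, all genes 0.07). The counts were the same in Dex against WT (median 1.27, all genes 0.03). At day 6, 4 of the 5 markers were lower and 1 higher with Dex, both against WT and against no Dex. Their sum at day 6 was 152.65 and 152.09 FPKM in KO, of which Irx1 alone held 149.01 and 148.48 FPKM, against 45.81 and 44.47 FPKM in WT, 43.53 and 46.05 FPKM without Dex and 15.57 and 17.18 FPKM with Dex. Of 5 mesoderm and definitive endoderm markers, T and Mixl1 reached at most 1.39 and 0.38 FPKM in any library and were not tested. The 3 tested (Eomes, Sox17 and Foxa2) were all lower in KO than in WT at days 4 and 6, and likewise with Dex. The 5 summed at day 6 to 25.12 and 24.70 FPKM in WT, 4.94 and 4.02 FPKM with Dex, 0.91 and 1.24 FPKM without Dex and 1.43 and 1.12 FPKM in KO. Of the 4 neural progenitor markers (Sox1, Nes, Fabp7 and Pax6, the last also an eye-field gene), 3 were higher in KO than in WT at days 4 and 6 and 1 was not called. Their sum at day 4 was 41.78 and 40.31 FPKM in WT, 113.22 and 107.45 FPKM in KO, 79.57 and 77.94 FPKM without Dex and 87.48 and 85.91 FPKM with Dex. In Dex against WT at day 4 these markers were split, 2 higher and 2 lower (median 0.78, all genes 0.03). Pluripotency markers summed to between 1697 and 1952 FPKM at day 0. At day 4 their sum was 434.73 and 440.42 FPKM in WT, 244.49 and 239.57 FPKM in KO, 249.07 and 253.40 FPKM without Dex and 107.54 and 110.01 FPKM with Dex. At day 4 this sum was lowest with Dex and highest in WT, while Rax was highest with Dex and lowest in KO. A link between the sum and Rax was not tested.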

How the data were processed

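The deposited table holds FPKM values that the authors computed per gene and library, rounded to 2 decimals. STAR, Cuffdiff and mm10 are named in the submitters' processing notes, without versions; strand use is not given in the sources used here. Rax and eGFP were taken by name. Both members and all gene lists were chosen with earlier results of these data known. Named genes were Rax, eGFP, Mettl3, other reporter rows, list members, genes within 500 kb of Rax and the 8 genes most like each member over group means; some genes within this rule are not reported here. One fit of 16 group means to all 32 libraries, with 16 residual degrees of freedom, was made in R 4.3.3 with limma 3.58.1 (lmFit, contrasts.fit, eBayes with trend) on log2(FPKM + 1), two-sided, with Benjamini-Hochberg adjustment over 16276 genes; the code was tested on simulated data. Low FPKM values step by whole fragments, which gave the depth; 90.2% to 93.1% of them came out whole to within 0.2, where chance gives 40%. Positions come from GENCODE M21 (GRCm38), which matched 99.5% of gene IDs. Replicate numbers do not pair libraries: same-numbered libraries deviated together at r between -0.09 and 0.13 over 120 pairs of groups. All samples carry a single batch date. Alternatives were a pseudocount of 0.1, 2 other filters, median-of-ratios rescaling, fits of the compared groups alone, a replicate block, no variance trend, leaving out each library, and other likeness measures.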

Additional observations from a re-analysis of the deposited data

Results flagged for a closer look

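What Rax and eGFP did between days 4 and 6 differed among the cultures by a test of the difference itself. The change of Rax was lower with Dex than in WT on the log2(FPKM + 1) scale (difference of changes -2.329, limma adjusted p = 1.43e-13). With Dex both libraries of day 6 lay below both of day 4, and in WT both lay above. Against no Dex, where Rax fell more steeply, the difference was 1.532 (adjusted p = 1.48e-10). For eGFP the difference of changes was -1.562 against WT (limma adjusted p = 9.68e-05) and 2.593 against no Dex (limma adjusted p = 4.00e-07). Here the libraries of day 6 lay above those of day 4 both in WT and with Dex.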

How the results depend on the processing

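Each of the 60 differences for Rax and eGFP was recomputed under the alternatives. At days 4 and 6 the KO to WT and the Dex to no Dex differences of both rows, and the Rax difference of Dex against WT, kept their direction and call in every setting in which they could be fitted. With a pseudocount of 0.1, Rax became called for Dex against WT at day 0 (-0.447) and WT day 2 against day 0 (-0.537), while eGFP lost its call for Dex against WT at day 4 (1.065) and day 6 (-0.521), Dex day 6 against day 4 (1.025) and the Dex against WT difference of that change (-1.586). With no filter eGFP lost its call for Dex against WT at day 6 (-0.519), without the variance trend Rax in WT became called for day 2 against day 0 (-0.145), and rescaling turned the uncalled Rax step without Dex from day 0 to day 2 from 0.005 to -0.023. With the replicate block all 60 kept direction and call, for example Rax in KO against WT at day 6 (-6.518), and 32 could be fitted on the compared groups alone, with no change of call. The mean filter of 5 FPKM changed no call. The cause of each change was not tested.

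Leaving out each library in turn gave these ranges. Comparisons of eGFP that use WT at day 0 depend on its 2 libraries: KO against WT -0.496 to 0.275, Dex against WT -0.57 to 0.201 and WT day 2 against day 0 -0.579 to 0.192, each called only without the first library. For Rax the range was 0.159 to 0.338 for KO against WT at day 2, -0.018 to 0.162 for Dex against WT at day 2, -0.235 to -0.055 for WT day 2 against day 0, -0.006 to 0.016 for no Dex day 2 against day 0 and -0.103 to 0 for Dex against no Dex at day 2. For eGFP it was -0.558 to -0.479 for Dex against WT at day 6, -0.252 to 0.195, -0.14 to 0.145 and -0.109 to 0.258 for no Dex against KO at days 0, 2 and 6, -0.178 to 0.106 for KO against WT at day 2, -0.24 to 0.149 for Dex against no Dex at day 0, and -0.343 to 0.104 in KO and -0.284 to 0.106 without Dex for day 2 against day 0. In these fits the lone library of a group is assumed to vary like the other groups. How many fragments lie behind eGFP values below 1 FPKM is not known, since the length used for that row is not given.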
